A study of Mus musculus with 6 samples.

Results

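The family of miR-148 and miR-152 was measured as 4 of the 199 mature miRNA rows in a small RNA count table from mouse small intestinal organoids, and these rows are mmu-miR-148a-3p, mmu-miR-148b-3p, mmu-miR-148b-5p and mmu-miR-152-3p (mmu, for mouse, is left out below). They were chosen by family name, without a threshold on any value, at a point when results of the BMP4 comparison were already known. The fold changes and adjusted p-values below therefore describe where the family stands in the fit over all miRNAs and are not independent evidence. Organoids grown from isolated mouse crypts received either PBS as the control (3 libraries) or BMP4, bone morphogenetic protein 4 (3 libraries). Treatment lasted 4 days, with BMP4 at 0.5 µg/ml. The medium, a commercial mouse organoid growth medium, was common to both groups. The labels state neither strain, sex nor age, and they leave unsaid whether libraries of 1 group derive from different cultures or animals, so a p-value here reflects spread that may be technical. The comparison addressed the miRNA response to BMP4, a stromal signal that in the intestine restrains stem cells and favours enterocyte maturation.

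A miRNA is cut from a hairpin precursor, and the arm that is loaded into an Argonaute protein recognises mRNAs mainly through its seed, bases 2 to 8 from the 5′ end. miR-148a, miR-148b and miR-152 form a family because their 3p arms carry the same seed. In human cells they are known to repress DNMT1, the maintenance DNA methyltransferase, and miR-148a is also known from liver as a repressor of the LDL receptor. miR-148a is an abundant miRNA of gut epithelium and liver.

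The mature sequences of the measured arms are shown because they set which arms share a seed and which reads could be counted under more than one arm. They are from RefSeq (GRCm38.p6, 4 of 4 members matched), written 5′ to 3′ with the seed in capitals.
miR-148a-3p: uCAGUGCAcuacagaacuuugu
miR-148b-3p: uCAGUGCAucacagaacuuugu
miR-152-3p: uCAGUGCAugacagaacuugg
miR-148b-5p: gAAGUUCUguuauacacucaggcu
Among all mouse mature sequences in RefSeq, 3 carry the seed CAGUGCA, and these are the 3 measured 3p arms. miR-148b-5p is the opposite arm of the miR-148b hairpin and has a different seed, AAGUUCU, which it shares with miR-148a-5p. The count table lists neither miR-148a-5p nor miR-152-5p. Counted from the 5′ end, miR-148a-3p differs from miR-148b-3p at C9U and U10C. It differs from miR-152-3p at C9U, U10G and U20G over 21 bases. miR-148b-3p and miR-152-3p differ at C10G and U20G, so that over their first 19 bases they differ at 1 position. A read that fits more than 1 mature sequence can be counted under each, so the split between miR-148b-3p and miR-152-3p is uncertain to that extent. Over the first 19 bases miR-148a-3p differs from each of these arms at 2 positions. It had many more reads than either, so reads of it with a changed base could also enter their counts. How many did so was not tested.

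The hairpins come from separate loci, and they are shown because only the miR-148b hairpin has both arms in the table. The measured arms are in capitals.
Mir148a: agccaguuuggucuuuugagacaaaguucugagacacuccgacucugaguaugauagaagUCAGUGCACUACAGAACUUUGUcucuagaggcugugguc
Mir148b: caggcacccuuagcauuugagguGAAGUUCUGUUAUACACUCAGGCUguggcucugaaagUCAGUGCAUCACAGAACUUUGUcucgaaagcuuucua
Mir152: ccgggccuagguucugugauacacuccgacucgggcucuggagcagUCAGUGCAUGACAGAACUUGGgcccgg
On GRCm38, Mir148a lies on the minus strand at chr6:51269812-51269910 and overlaps no other gene of GENCODE M21, and the nearest protein-coding gene there, Nfe2l3, is 162760 bases away. Mir148b lies on the plus strand at chr15:103285125-103285221, in intron 1 of Copz1 (transcript Copz1-201). Mir152 lies on the plus strand at chr11:96850393-96850465, in intron 1 of Copz2 (transcript Copz2-201). Copz1 and Copz2 encode the zeta subunits of the coatomer, the coat of Golgi transport vesicles, and each is transcribed on the same strand as the miRNA it hosts. These positions come from the annotation and not from the deposited table.

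The libraries held 259811 to 3486409 counts, with PBS replicate 1 the shallowest. Of the 7 miRNAs taken as markers of intestinal epithelium, 7 were in the table, and together they held 49.1 to 50.9% of counts in PBS and 80.4 to 82.5% in BMP4. Of these 7, 3 were called higher, 0 lower and 4 not in the fit over all miRNAs. Over all tested miRNAs 17.4% were called higher. Their log2 fold changes ran from 3.85 (miR-215-5p) down to -0.43 (miR-200c-3p) and -0.65 (miR-375-3p), so the sum does not stand for each marker. The table listed 0 of 6 stromal and 0 of 3 erythroid markers, 2 of 6 immune markers, 1 of 2 endothelial markers (miR-126a-3p, 0.00220 to 0.0145%), 2 of 3 neuronal markers (0.0353 to 0.104%) and the liver marker miR-122-5p (0.000611 to 0.00192%). BMP4 replicate 2 stood apart in its scaling, with the lowest TMM factor (trimmed mean of M values, the library scaling of edgeR) at 0.375, against 0.600 and 0.651 in the other BMP4 libraries and 1.78 to 1.97 in PBS. The fold changes of the arms, their places among all miRNAs and their nearest miRNAs are given with and without it. Of the markers of other cell types, the immune miR-146a-5p (log2 fold change 1.22, edgeR adjusted p = 0.0238, on 13 to 181 counts a library) and the liver miR-122-5p, described below, were called higher in BMP4 on the TMM scale, as were 2 arms of the family. The other immune marker, miR-155-5p, was at -0.36 (adjusted p = 0.596), and as a share of all counts the 2 immune markers together were at 0.00799 to 0.00974% in PBS and 0.00410 to 0.00565% in BMP4. The part of these markers' cells in the family's values was not tested.

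miR-148a-3p made up nearly all of the family. It had 16702, 168838 and 142839 counts in PBS replicates 1 to 3 and 30695, 53066 and 117815 counts in BMP4 replicates 1 to 3. It stood at place 4, 5 and 4 of the 199 entries by count in the PBS libraries and at place 4, 3 and 4 in the BMP4 libraries, so it was among the most abundant miRNAs with or without BMP4. miR-148b-3p, from the Copz1 intron, was counted 333, 2722 and 3573 times with PBS and 562, 773 and 2348 times with BMP4. miR-152-3p, from the Copz2 intron, was counted 34, 303 and 311 times with PBS and 113, 97 and 437 times with BMP4. miR-148b-5p reached 8, 39 and 30 reads with PBS and 12, 6 and 23 reads with BMP4. In each of the 6 libraries the order was miR-148a-3p, miR-148b-3p, miR-152-3p, miR-148b-5p, and on the scaled levels given below the ranges of neighbouring arms over the 6 libraries did not overlap. A read stands for 1 insert whatever the arm's length, but ligation efficiency differs between sequences, so the order is that of reads.

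Of the reads on the 3 arms that share the seed, the mean share of miR-148a-3p was 97.8% ± 0.445 with PBS and 97.98% ± 0.365 with BMP4 (SD over 3 libraries). PBS replicate 1 was at 97.85% (95% Wilson interval 97.62 to 98.06), replicate 2 at 98.24% (98.18 to 98.30) and replicate 3 at 97.35% (97.27 to 97.43). BMP4 replicate 1 was at 97.85% (97.68 to 98.003), replicate 2 at 98.39% (98.28 to 98.49) and replicate 3 at 97.69% (97.60 to 97.77), so the groups overlapped. For miR-148b-3p the mean share was 1.99% ± 0.427 with PBS against 1.72% ± 0.263 with BMP4 (SD over 3 libraries), also with overlap. miR-152-3p held 0.199, 0.176 and 0.212% in PBS and 0.360, 0.180 and 0.362% in BMP4. Its BMP4 replicates 1 and 3 lay above every PBS library, and BMP4 replicate 2 lay within their range. The intervals treat each read as a separate draw, although copies made by PCR are not separate molecules, so they can be too narrow. They also leave out the spread between libraries.

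The family was a larger part of the PBS libraries than of the BMP4 libraries when all counts were the total. The 3 seed-sharing arms together took 6.57, 7.64 and 6.89% of counts in PBS replicates 1 to 3 and 2.92, 5.40 and 3.46% in BMP4 replicates 1 to 3. Every BMP4 library was below every PBS library. Among the 133 seeds found in the 177 of 199 entries with a RefSeq sequence, CAGUGCA ranked 4 by share in all 3 PBS libraries. In BMP4 it ranked 5, 3 and 5. A share of all counts is also set by other miRNAs, and the 6 entries of miR-192, miR-194 and miR-215 made up 37.6% ± 1.63 of a PBS library and 78.8% ± 1.24 of a BMP4 library (SD, n = 3).

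With those 6 entries left out of the total, the direction turned. miR-148a-3p held 10.1, 11.99 and 11.1% of the remaining counts in PBS and 13.9, 26.0 and 14.9% in BMP4, so every BMP4 library was above every PBS library. Of all counts it had held 6.43, 7.51 and 6.71% in PBS and 2.86, 5.31 and 3.38% in BMP4. miR-152-3p held 0.0205, 0.0215 and 0.0241% of the remaining counts in PBS and 0.0513, 0.0476 and 0.0554% in BMP4, with no overlap between groups. Its mean share of all counts was 0.0137% ± 0.000794 with PBS and 0.0109% ± 0.00145 with BMP4 (SD over 3 libraries). There too the groups did not overlap, with every BMP4 library below every PBS library. Shares of miR-148b-3p outside the 6 entries averaged 0.224% ± 0.0463 with PBS and 0.311% ± 0.0631 with BMP4 (SD over 3 libraries), and there the groups overlapped. Whether an arm of this family was higher or lower with BMP4 thus depended on the denominator.

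**Figure D1:**
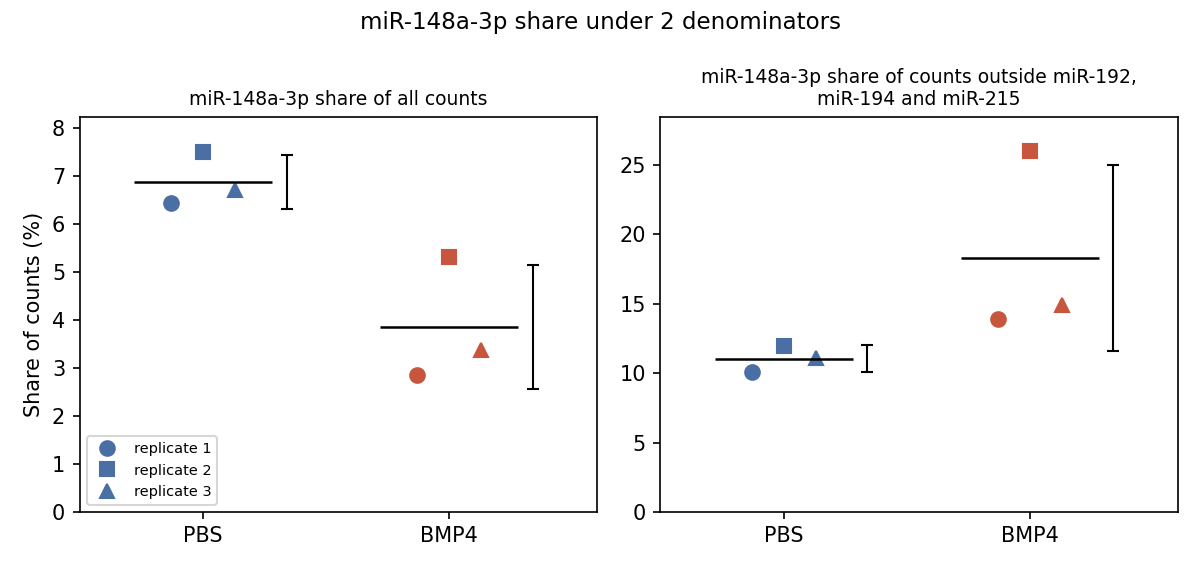
Share of miR-148a-3p in each library as a percentage of all counts (left) and of the counts outside miR-192, miR-194 and miR-215 (right). Points are libraries, lines are group means and bars are SD over 3 libraries. The BMP4 points lie below the PBS points on the left (2.86 to 5.31 against 6.43 to 7.51%) and above them on the right (13.9 to 26.0 against 10.1 to 11.99%).

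Normalised levels use the TMM scale, which sets the bulk of the miRNAs to no change, and are given in CPM (reads of an arm over the scaled library size). On this scale miR-148a-3p stood at 32693, 42211 and 34376 CPM in PBS and at 47609.6, 141825 and 51905 CPM in BMP4. The 3 BMP4 libraries were above the 3 PBS libraries, and BMP4 replicate 2 was 2.85 times the mean of the other BMP4 libraries. The group means were 36427 ± 5079.8 and 80446 ± 53199 CPM (SD, n = 3). The log2 fold change was 1.14 ± 0.36 (SE, n = 3 per group, edgeR adjusted p = 0.0201), which passed the threshold of 0.05 over the 195 tested miRNAs. Scaled to total counts it was -0.84 (adjusted p = 0.00377), a call in the opposite direction. The rise was 0.44 without BMP4 replicate 2 (adjusted p = 0.0297). Leaving out a PBS library ended the call at a fold change no smaller, with 1.16 without replicate 1 (adjusted p = 0.123), 1.35 without replicate 2 (adjusted p = 0.0571) and 1.21 without replicate 3 (adjusted p = 0.101). In these bulk libraries, a different number of cells with a miRNA and a different amount of it per cell cannot be told apart.

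miR-152-3p had the highest fold change of the 4 arms. Its levels were 66.6, 75.8 and 74.8 CPM in PBS and 175, 259 and 193 CPM in BMP4. Each BMP4 library was above each PBS library, and BMP4 replicate 2 was 1.41 times the mean of the other BMP4 libraries. The log2 fold change was 1.51 ± 0.37 (SE, n = 3 per group, edgeR adjusted p = 0.00304), a fitted fold of 2.86. Leaving out any of the 6 libraries kept the call (1.33 to 1.64, adjusted p from 0.000407 to 0.0199), and without BMP4 replicate 2 the value was 1.33 (adjusted p = 0.000407). With total counts the value was -0.33 (adjusted p = 0.389) and the call was lost. The floor of 3 counts corresponded to 5.87 CPM in PBS replicate 1 and to 8.02 CPM in BMP4 replicate 2, and the levels of miR-152-3p lay well over it.

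miR-148b-3p did not pass the threshold. It stood at 652, 681 and 859.9 CPM in PBS and at 872, 2066 and 1034 CPM in BMP4. The groups did not overlap, but the highest PBS library and the lowest BMP4 library were close, and BMP4 replicate 2 was 2.17 times the mean of the other BMP4 libraries. The log2 fold change was 0.85 ± 0.35 (SE, n = 3 per group, edgeR adjusted p = 0.0756). It was 0.38 without BMP4 replicate 2 (adjusted p = 0.287) and 1.08 without BMP4 replicate 1, where it passed (adjusted p = 0.0340). Scaled to total counts it was -1.08 (adjusted p = 0.00867).

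miR-148b-5p, the less abundant arm of the same hairpin, was the least counted of the 4, with 8 counts in PBS replicate 1 and 6 in BMP4 replicate 2 against the floor of 3. Its levels were 15.7, 9.75 and 7.22 CPM in PBS and 18.6, 16.04 and 10.1 CPM in BMP4, and the groups overlapped. The log2 fold change was 0.52 ± 0.47 (SE, n = 3 per group, edgeR adjusted p = 0.434), with total counts it was -1.25 (adjusted p = 0.0355), and without BMP4 replicate 2 it was 0.46 (adjusted p = 0.535).

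**Figure D2:**
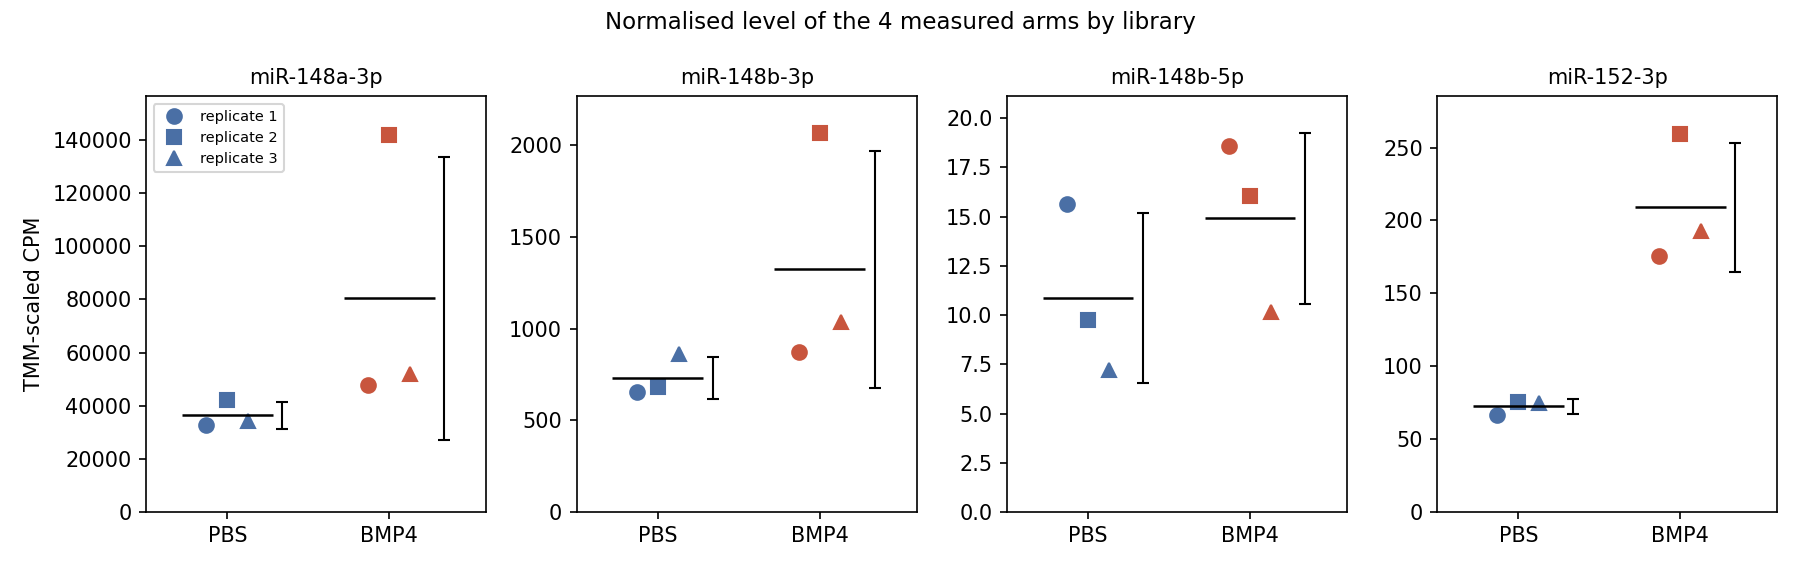
TMM-scaled CPM of the 4 measured arms in each library, with the axis from 0 in each panel. Points are libraries, lines are group means and bars are SD over 3 libraries. BMP4 replicate 2 (square) is the highest point for miR-148a-3p (141825 CPM), miR-148b-3p (2066 CPM) and miR-152-3p (259 CPM).

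In the fit over all miRNAs 2 of the 4 arms were called, both higher, where 30.3% of the 195 tested miRNAs were called in either direction and 17.4% were called higher. On the TMM scale 3 of 4 arms had groups that did not overlap, all higher in BMP4, against 43.6% of all tested miRNAs in either direction and 23.6% higher in BMP4. Since the family was chosen with this comparison known, nothing is read from these counts. The median log2 fold change of the 4 arms was 0.998, against 0.03 over all tested miRNAs. In order of log2 fold change from the highest, miR-152-3p was at place 21 of 195, miR-148a-3p at 28, miR-148b-3p at 42 and miR-148b-5p at 63. Without BMP4 replicate 2, where 198 were tested, miR-152-3p was at place 22, miR-148b-5p at 60, miR-148a-3p at 62 and miR-148b-3p at 66. With total counts the median over all miRNAs moved to -1.78, and the 4 arms at -0.33, -0.84, -1.08 and -1.25 stayed above that median.

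**Figure D3:**
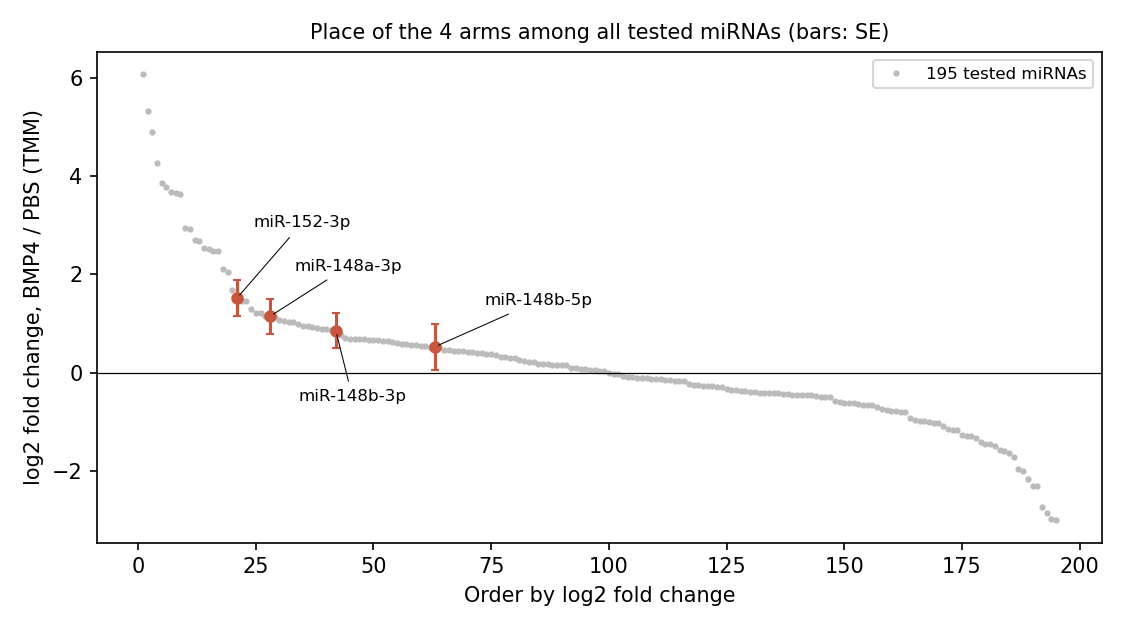
log2 fold change (BMP4 over PBS, TMM scale) of 195 tested miRNAs in order from the highest, with the 4 measured arms marked and bars showing SE. The arms lie at places 21, 28, 42 and 63, with values from 1.51 down to 0.52.

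**Figure D4:**
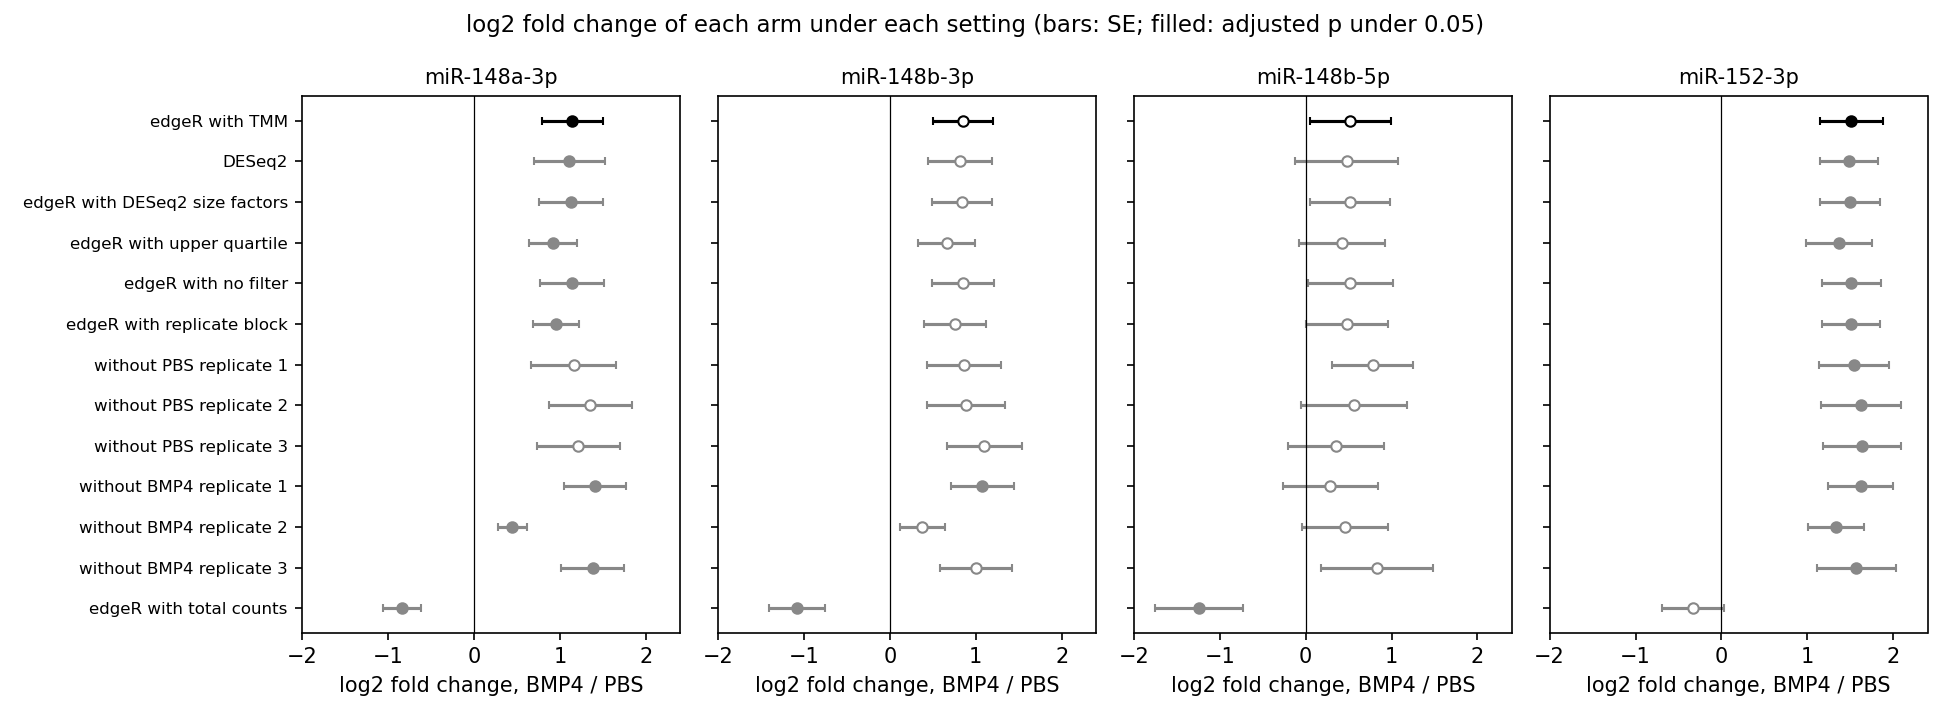
log2 fold change of each arm under 13 settings, with bars for SE, filled points for an adjusted p under 0.05 and open points for the others. With total counts (bottom) the 4 values are under 0, at -0.84, -1.08, -1.25 and -0.33, and under the other settings they are above 0.

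Ratios of counts between arms do not depend on how libraries are scaled. miR-148b-3p had 9.79, 8.98 and 11.5 times the counts of miR-152-3p in PBS and 4.97, 7.97 and 5.37 times in BMP4. Every BMP4 ratio was below every PBS ratio, and BMP4 replicate 2 was the one nearest to PBS. The mean log2 ratio differed by -0.75 (BMP4 minus PBS, SD within groups 0.29, n = 3 per group), and with 1 library left out at a time the difference ran from -0.96 to -0.62. miR-152-3p therefore gained on miR-148b-3p, the arm whose sequence is nearest to it over the first 19 bases, in all 3 BMP4 libraries.

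miR-148a-3p had 50.2, 62.03 and 39.98 times the counts of miR-148b-3p in PBS and 54.6, 68.6 and 50.2 times in BMP4. The groups overlapped, and the difference of the mean log2 ratio, 0.20, was below the SD within groups of 0.28. Against miR-152-3p it had 491, 557 and 459 times the counts in PBS and 272, 547 and 269.6 times in BMP4. Here BMP4 replicates 1 and 3 were below the PBS range while BMP4 replicate 2 was within it, and the difference of the mean log2 ratio went from -0.55 to -0.89 without BMP4 replicate 2. The 2 arms of the miR-148b hairpin kept no steady ratio, with 41.6, 69.8 and 119 reads of miR-148b-3p for each read of miR-148b-5p in PBS and 46.8, 129 and 102 in BMP4. These ratios spread 2.86-fold within PBS and 2.75-fold within BMP4, on 6 to 39 counts of the 5p arm. With 3 libraries against 3 an exact permutation test cannot go below p = 0.1, so the ratios are given without a test.

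**Figure D5:**
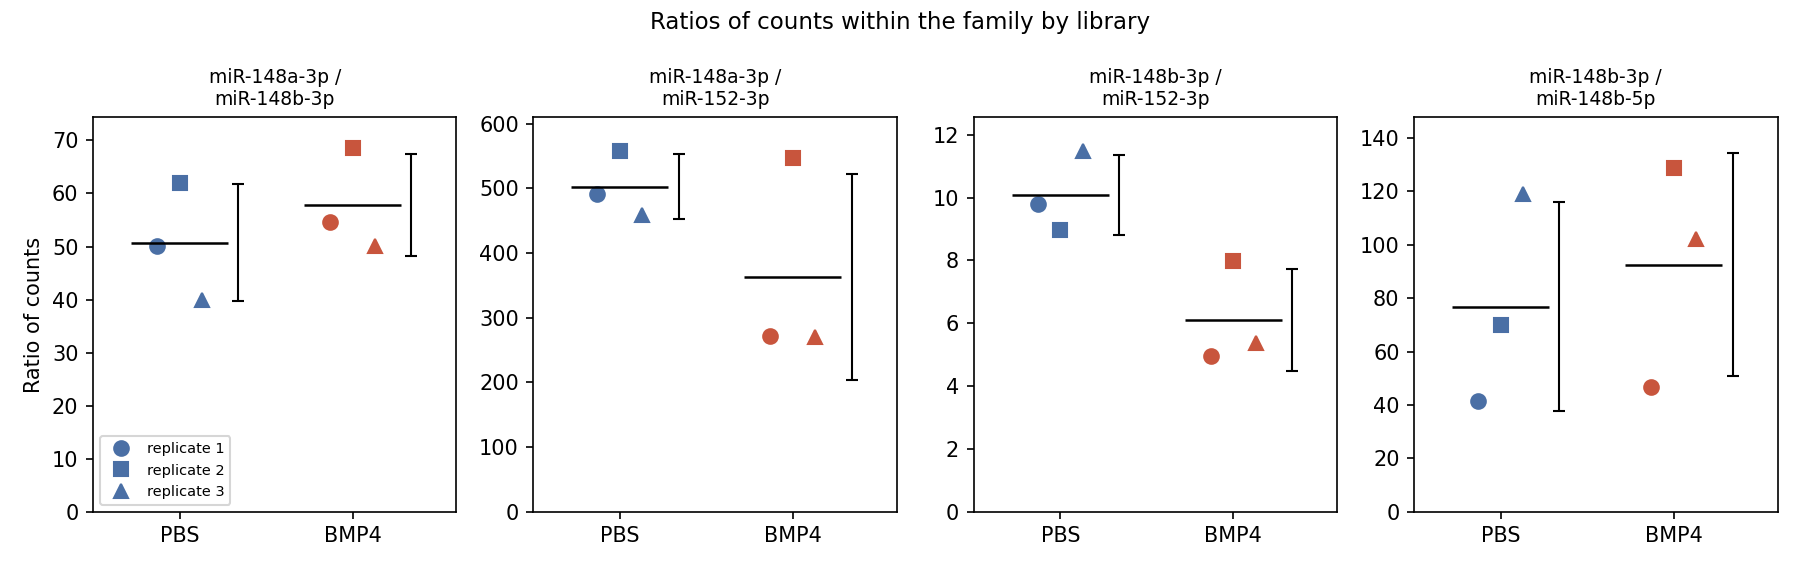
Ratios of counts between arms of the family in each library, with the axis from 0. Points are libraries, lines are group means and bars are SD over 3 libraries. In the third panel the BMP4 ratios of miR-148b-3p to miR-152-3p (4.97 to 7.97) lie below those of PBS (8.98 to 11.5), and in the other panels the groups overlap.

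The miRNAs whose levels followed each 3p arm most closely over the 6 libraries were found from log2 CPM centred on each miRNA's mean, by the smallest root mean square difference among 183 others with a mean of 10 or more CPM. For miR-152-3p the nearest was miR-192-5p, a miRNA of mature intestinal epithelium, at 0.129 on the log2 scale, followed by miR-146a-5p (0.239), 1 of the immune markers above, and miR-203-3p (0.246). The median distance over the 183 was 0.941. For miR-148b-3p the nearest were miR-532-5p (0.140), miR-30a-3p (0.174) and miR-30e-3p (0.176), with a median distance of 0.809. For miR-148a-3p they were miR-1191a (0.206, on 8 to 53 counts a library), miR-140-3p (0.219) and miR-146b-5p (0.227), with a median of 0.940. miR-148b-3p came at place 4 of 183 for miR-148a-3p (0.248). miR-152-3p was further from both, at place 26 for miR-148a-3p (0.440) and at place 34 for miR-148b-3p (0.437). Because each mean was taken over both groups, a distance also takes in the difference between BMP4 and PBS. The log2 fold changes were 1.46 for miR-192-5p, 1.22 for miR-146a-5p and 1.03 for miR-203-3p, against 1.51 for miR-152-3p. Likeness within a group was not tested. The distances share the 6 libraries and their scaling and are a description.

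Without BMP4 replicate 2, with 189 others compared over 5 libraries, miR-192-5p was again the nearest to miR-152-3p (0.117, with a median distance of 0.788), and miR-146a-5p and miR-203-3p were at places 5 and 6. miR-532-5p and miR-30a-3p were at places 2 and 3 for miR-148b-3p, behind miR-186-5p (0.0959, with a median of 0.490). For miR-148a-3p none of the 3 nearest was the same. They were miR-378b (0.0980), miR-361-3p (0.120) and let-7b-5p (0.156), with a median of 0.479, while miR-146b-5p was at place 5, miR-1191a at 15 and miR-140-3p at 20. The neighbours of miR-148a-3p over 6 libraries thus depended on that library, in which miR-140-3p stood at 2202 CPM, against 749 and 870 in the other BMP4 libraries. miR-148b-3p was then at place 10 for miR-148a-3p, and miR-152-3p at 79 for miR-148a-3p and at 88 for miR-148b-3p.

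The miR-29 family is known, like miR-148 and miR-152, for repression of DNA methyltransferase mRNAs, and 2 of its 3 3p arms were in the table. Neither passed the threshold on the TMM scale. The fitted log2 difference was -0.11 ± 0.38 for miR-29a-3p (SE, n = 3 per group, edgeR adjusted p = 0.828) and -0.62 ± 0.56 for miR-29b-3p (adjusted p = 0.435). The value of miR-29b-3p ran from -1.88 without BMP4 replicate 1, where it passed (adjusted p = 0.0133), to 0.16 without PBS replicate 3. With total counts both were called lower (-1.88 for miR-29a-3p and -2.39 for miR-29b-3p). In that setting 158 of the 195 tested miRNAs were called lower and the median over all was -1.78, so nothing is read from these calls. Of 8 miRNAs known from cholesterol and lipid metabolism 5 were tested, and 2 were called higher, 0 lower and 3 not, with a median of 0.68, where 30.3% of all tested miRNAs were called, 17.4% higher, and the median over all was 0.03. The called ones were miR-27a-3p (0.95, adjusted p = 0.0409) and miR-122-5p, a liver miRNA (2.71, adjusted p = 0.000895, on 5 to 29 counts a library). miR-27a-3p kept its call without BMP4 replicate 2 (1.15), and lost it without any other library at fold changes of 0.75 to 1.21 (adjusted p from 0.0533 to 0.150). Its call was also lost with the upper quartile (0.86, adjusted p = 0.0660), no filter (0.95, adjusted p = 0.0511) and a replicate block (0.95, adjusted p = 0.0943). With total counts it was at -0.79 and miR-122-5p at 0.83, neither past the threshold. These lists were chosen with earlier results of these data known.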

How the data were processed

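Small RNA of mouse intestinal organoids (3 PBS and 3 BMP4 libraries) was read out as deposited raw counts per mature miRNA. The authors trimmed adaptors with bbmap, kept inserts of miRNA length, mapped reads to the mouse genome with miRDeep2 and counted them on miRBase mature sequences at default settings. Genome build, miRBase release and the rule behind the 199 listed entries: not given in the sources used here. In the submitters' processing notes edgeR is named without a version. Counts were compared here with edgeR 4.0.16 in R 4.3.3: filterByExpr left 195 entries, libraries were TMM-scaled, and a 2-sided quasi-likelihood test of BMP4 against PBS was run on them, with p-values adjusted by Benjamini-Hochberg over these entries and calls made at an adjusted p under 0.05. The standard error is the fold change divided by the root of its F statistic. The script was tested on simulated data. Replicates differed by more than sampling noise (chi-square 40533 in PBS and 75221 in BMP4 on 396 degrees of freedom), so none was merged. Shares carry 95% Wilson intervals. Alternatives were DESeq2 1.42.0, other scalings, no filter, a replicate block and leaving out each library. The text names the 4 members, the 3 nearest miRNAs of each 3p arm and members of short lists. Members and lists were chosen with earlier results of these data known. Ratios to miR-192-5p were chosen after their values were seen. Positions and sequences are from GENCODE M21 and RefSeq on GRCm38. Figures used Python 3.11.15 and matplotlib 3.10.9.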

Additional observations from a re-analysis of the deposited data

How the results depend on the processing

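The 4 log2 fold changes were positive in every setting except total counts, where miR-148a-3p was at -0.84, miR-148b-3p at -1.08, miR-148b-5p at -1.25 and miR-152-3p at -0.33. That setting also gave 171 called miRNAs in place of 59, 13 higher in place of 34 and 158 lower in place of 25. With DESeq2, its size factors in edgeR, the upper quartile or no filter, the call of each arm was the same. With total counts 3 arms were called, all lower. Leaving out 1 library gave ranges of 0.44 to 1.41 for miR-148a-3p, 0.38 to 1.10 for miR-148b-3p, 0.29 to 0.83 for miR-148b-5p and 1.33 to 1.64 for miR-152-3p. It gave 35 to 71 called miRNAs (35 without PBS replicate 3), 24 to 38 higher, 11 to 33 lower and 1 to 3 family members. The count of members was 1 without PBS replicate 1, 2 or 3, where miR-148a-3p lost its call. With counts outside miR-192, miR-194 and miR-215 as the total, the BMP4 minus PBS difference in share went from -3.03 to 7.25 percentage points for miR-148a-3p, from -0.0733 to 0.0869 for miR-148b-3p, from -0.00128 to 0.000461 for miR-148b-5p, from -0.00280 to 0.0294 for miR-152-3p and from -3.11 to 7.37 for the seed-sharing sum. The other alternatives moved no ratio or composition by more than the SD within groups. With a replicate block miR-148a-3p was at 0.96, miR-148b-3p at 0.76, miR-148b-5p at 0.49 and miR-152-3p at 1.51, no family call changed, and 49 miRNAs were called. Same-numbered libraries deviated from their group means with correlations of 0.04, 0.09 and -0.01 across miRNAs, and differently numbered ones with -0.16 to 0.097. With 3 libraries per group these values cannot settle whether the libraries were paired. Counting error bears most on miR-148b-5p, at 6 to 39 counts a library. Places by fold change and nearest miRNAs without BMP4 replicate 2 were added after seeing the data.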

Other observations

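The ratio of miR-152-3p to miR-192-5p was chosen after its values were seen, because miR-192-5p was the nearest miRNA to miR-152-3p. The nearest miRNA is by its definition the one with the steadiest ratio, so a steady ratio follows from that choice and is no further result. The ratio spread 1.09-fold within PBS and 1.31-fold within BMP4. It was 0.000766, 0.000782 and 0.000838 in PBS and 0.000877, 0.000740 and 0.000968 in BMP4, and the groups overlapped. The same ratio for miR-148b-3p was 0.00750, 0.00703 and 0.00963 in PBS and 0.00436, 0.00590 and 0.00520 in BMP4, with each BMP4 library below each PBS library. For miR-148a-3p it was 0.376, 0.436 and 0.385 in PBS and 0.238, 0.405 and 0.261 in BMP4, where BMP4 replicate 2 lay within the PBS range and the other BMP4 libraries below it. These ratios do not depend on library scaling.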
